A study of Mus musculus with 20 samples.

Results

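The genes described here encode the machinery of the cell cycle and of DNA replication. They were chosen by symbol, as array elements with a single symbol from the Mcm, cyclin A to L, Cdk, Cdc, Cdkn, Bub, Mad2l, Orc, Cenp, Aurk, Plk, Top2, Rfc or replicative polymerase families, or with the symbol Pcna, Pttg1, Mis12 or Mki67, and with at most 3 of 20 values missing. This gave 147 of 11552 array elements, which stood for 86 genes, and none of them was a Plk gene. Of these, 21 elements in 18 genes were grouped apart, since most of their products act elsewhere in the cell. Of the 147 elements, 145 had no missing value and the others lacked 1, so all 147 entered the tests. A gene had up to 6 elements, and 40 of the 86 genes had more than 1. A further 9 elements with such a symbol among several symbols were left out.

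Prostates came from male mice aged 8 to 9 weeks of 5 inbred strains, C57BL/6 (C57BL/6J), 129X1/Sv (129X1/SvJ), FVB/N (FVB/NJ), BALB/c (BALB/cAnNCrl) and DBA/2 (DBA/2NCrl), and the sources name neither a treatment nor a transgene. The 12 mice of a strain were combined by 3 into 4 pools, with equal RNA from the dorsal, lateral, ventral and anterior lobes. Amplified RNA of each pool was hybridised to 1 cDNA array of prostate clones against a common reference that held RNA of all pools of all strains. In each strain 2 pools carried Cy3 and 2 carried Cy5. Each value is a log2 ratio of pool over reference, so that 0 is the level of the reference and a difference of 1 is a 2-fold difference. Such a ratio gives no absolute level, so genes were compared over strains and never with each other, and a cell type marker could be compared between strains but not shown to be present. A pool averages over its mice, and each lobe holds epithelium, stroma and other cells.

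In dividing cells, cyclins activate the cyclin-dependent kinases in turn, and small inhibitor proteins hold these kinases back. Origins of replication are licensed when the origin recognition complex and Cdc6 load the Mcm helicase, and the kinetochore and the spindle checkpoint later govern how sister chromosomes part. In the adult prostate few epithelial cells divide, and some of these genes, such as Mki67 and Pcna, are widely used as a readout of proliferation.

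The direction and quality of the values were checked on the whole arrays. H2-Ea, a class II histocompatibility gene with a null allele in the haplotypes that C57BL/6, 129X1/Sv and FVB/N mice carry, had strain means between -3.56 and -2.40 in these 3 strains and between 1.17 and 1.19 in BALB/c and DBA/2. Arrays of the same strain and dye correlated at 0.20 to 0.73 over all elements, and those of the same strain but opposite dye at -0.12 to 0.44. The array of 129X1/Sv pool 4 had the widest spread, with a median absolute deviation of 0.437, against 0.157 to 0.319 on the others.

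Of the 147 elements, 23 differed over the 5 strains at an adjusted p of at most 0.1 in limma's moderated F test, which is 15.6%, against 11.3% of the 11159 elements tested. At an unadjusted p under 0.05 there were 46, or 31.3%, against 19.9% of all. The calls fell in 16 genes. Counting 1 element per gene, 13 of 86 genes passed, or 15.1%, against 12.5% of 5820 genes. Mis12 and both elements of Pttg1, which the choice of members names by symbol, are among the 23. The members were chosen with earlier results of these data known, so these shares are no test of the families. The range, that is the highest minus the lowest strain mean, had a median of 0.39 over the 147 elements and of 0.32 over all elements tested. Of the 147 elements 6 ranged over more than 1, against 490 of the 11159 elements tested. The 6 were Mis12, both elements of Pttg1, Cdc42ep3, and 1 element each of Cdkn1b and Cdkn1c, which did not pass the test. With the dye as a term in the model 38 elements passed, while 11 passed on the 10 arrays with the pool in Cy3 alone and 4 on the 10 with the pool in Cy5 alone. Without the 129X1/Sv arrays 33 passed, and 30 passed without 129X1/Sv pool 4 alone, all of the 23 among them. In bulk tissue, fewer cells of a type and less RNA per cell cannot be told apart.

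**Figure D1:**
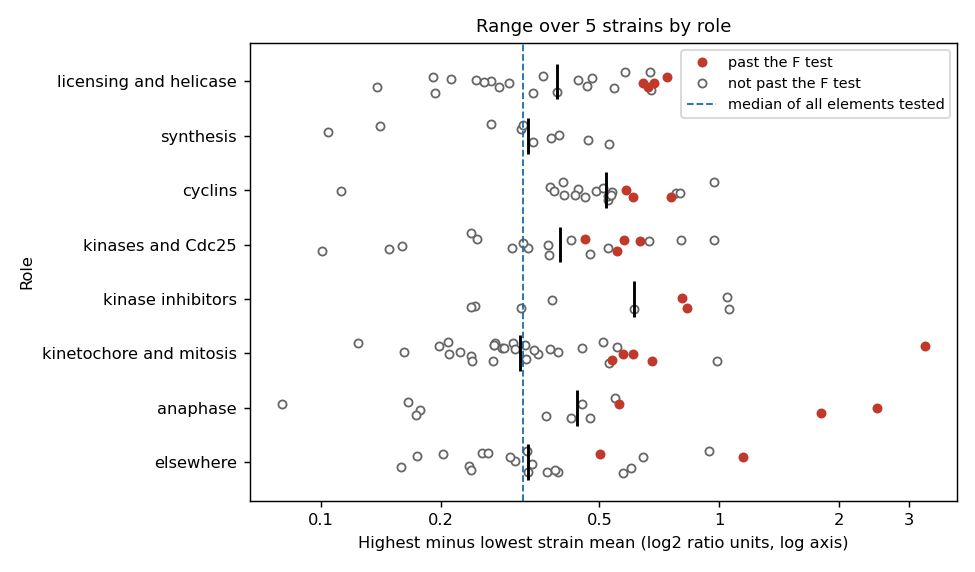
Highest minus lowest strain mean of each of the 147 elements (horizontal log axis, log2 ratio units), by role, where filled red points passed the F test, open points did not, vertical bars are role medians and the dashed line is the median of all elements tested, 0.32. Mis12 and the 2 elements of Pttg1 lie apart from the rest, at 3.29, 2.48 and 1.80.

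Mis12, which encodes a subunit of the complex that joins the centromere to the outer kinetochore, had the widest range of all members, 3.29 or 9.77-fold. Its single element, 8973, read 0.79, 0.98, 0.72 and 0.74 across C57BL/6 and 0.72, 1.33, 1.44 and 1.17 across DBA/2 pools. It read -2.04, -1.89, -2.04 and -2.50 across 129X1/Sv, -2.10, -1.92, -2.21 and -1.75 across FVB/N and -2.45, -1.76, -2.19 and -1.68 across BALB/c pools. The 8 pools of C57BL/6 and DBA/2 thus lay above all 12 pools of the other strains, with no value between -1.68 and 0.72 (limma F test, adjusted p = 2.95e-11). Set against single strains, C57BL/6 was higher than 129X1/Sv by 2.93 (SE 0.16, adjusted p = 2.53e-05) in limma. C57BL/6 differed from DBA/2 by -0.36 (SE 0.15, adjusted p = 0.318), which did not pass, and among 129X1/Sv, FVB/N and BALB/c the largest difference was -0.13 (SE 0.17, adjusted p = 0.896). The order of the means was thus DBA/2, C57BL/6, FVB/N, BALB/c and 129X1/Sv, and neighbours in it differed beyond their spread only between C57BL/6 and FVB/N. The adjusted p stayed at or below 3.76e-10 when any 1 pool was left out. In each dye alone the element passed, at an adjusted p of 2.05e-04 in Cy3 and 1.29e-04 in Cy5 (limma).

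The Mis12 promoter is shown because this gene carried the widest strain difference. It comprises the 250 bases before the RefSeq start (chr11:71019361-71019610, plus strand, GRCm38.p6). Capitals mark 4 motifs read on both strands, namely the CCAAT box, the cell cycle homology region TTTGAA, and the E2F spellings TTTCGCGC and TTTGGCGC, which can overlap each other.
Mis12: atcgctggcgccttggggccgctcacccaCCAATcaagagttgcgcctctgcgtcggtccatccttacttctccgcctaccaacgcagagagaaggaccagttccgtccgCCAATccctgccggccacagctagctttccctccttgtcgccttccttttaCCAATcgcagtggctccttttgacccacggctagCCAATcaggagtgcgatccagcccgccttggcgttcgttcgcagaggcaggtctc
The window held 4 CCAAT boxes and none of the other motifs. The sequence is that of the reference genome, which was built from C57BL/6J, and the other strains' sequences were not analysed here.

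Pttg1 encodes securin, which holds separase inactive until anaphase. Its 2 elements carry the same matching sequence and both passed, with the highest mean in C57BL/6 and the lowest in 129X1/Sv. Element 5524 read 1.43, 1.41, 1.00 and 1.62 across C57BL/6 pools. It read -1.12, -1.15, -1.06 and -1.14 across 129X1/Sv, -0.25, -0.39, -0.36 and -0.080 across FVB/N, -1.01, -0.47, -0.32 and -0.67 across BALB/c and -0.28, -0.30, -0.26 and -0.26 across DBA/2 pools. All 4 C57BL/6 pools lay above the 16 others and all 4 129X1/Sv pools below the 16 others, and the range of 2.48 was a 5.59-fold difference (limma, adjusted p = 2.17e-09). Element 926 read 0.90, 1.12, 1.18 and 1.45 across C57BL/6 pools. It read -0.62, -0.95, -0.36 and -0.63 across 129X1/Sv, -0.49, -0.18, -0.32 and -0.39 across FVB/N, -0.76, -0.18, -0.36 and -0.76 across BALB/c and -0.17, -0.25, -0.20 and -0.14 across DBA/2 pools. Here too C57BL/6 stood above all others, over a range of 1.80, but the 129X1/Sv pools overlapped those of FVB/N and BALB/c (limma, adjusted p = 1.97e-07). The spots correlated at r = 0.95 over the 20 arrays. On element 5524, 129X1/Sv differed from DBA/2 by -0.84 (SE 0.10, adjusted p = 0.00374) in limma, and on element 926 by -0.45 (SE 0.14, adjusted p = 0.277). FVB/N and DBA/2, at -0.27 for FVB/N and -0.27 for DBA/2, were not separated on element 5524. Both elements passed without any 1 pool and in either dye alone.

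The Pttg1 promoter (chr11:43425982-43426231, minus strand, GRCm38.p6) is shown for the second widest difference, again as the 250 bases before the RefSeq start.
Pttg1: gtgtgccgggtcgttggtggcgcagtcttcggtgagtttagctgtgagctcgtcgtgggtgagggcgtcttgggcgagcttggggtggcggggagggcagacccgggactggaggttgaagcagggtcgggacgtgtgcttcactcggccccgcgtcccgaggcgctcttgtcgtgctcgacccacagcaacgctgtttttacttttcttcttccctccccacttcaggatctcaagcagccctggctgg
None of the 4 motifs occurred in this window, so it has no capitals.

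**Figure D2:**
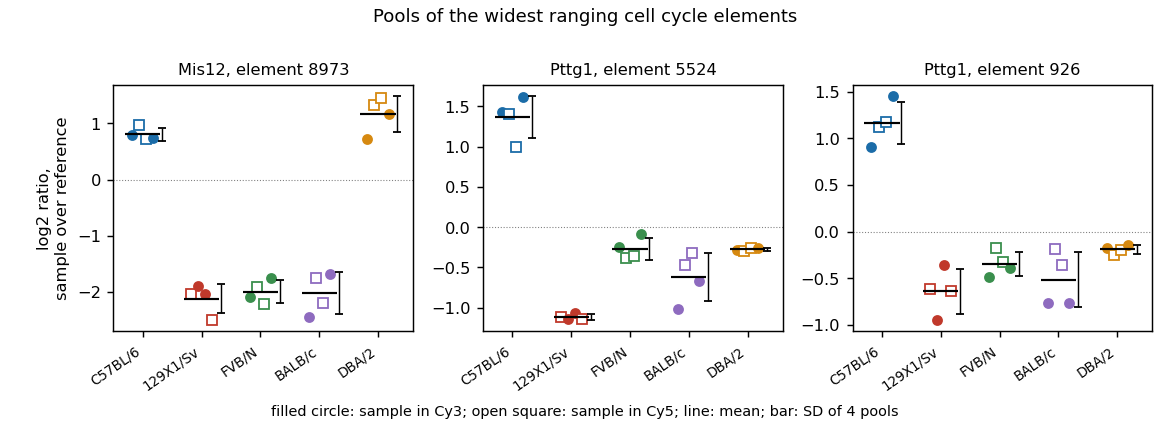
Log2 ratio of each pool (vertical axis, pool over reference) for Mis12 and the 2 elements of Pttg1, by strain, with the mean as a line and the SD of 4 pools as a bar, pools in Cy3 as filled circles and pools in Cy5 as open squares. Mis12 splits C57BL/6 and DBA/2 from the other strains, and Pttg1 sets C57BL/6 apart from all others.

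The counts by role that follow stand beside the 11.3% of all elements tested that passed, and no difference between roles was tested. Among the 23 elements for origin licensing and the helicase, 4 passed, in 3 of 13 genes, with a median range of 0.39. Mcm6, a subunit of the replicative helicase, passed on both elements. Element 11346 read 0.55, 0.083, 0.50 and 0.56 across C57BL/6 pools, against -0.26, -0.065, -0.49 and -0.46 across FVB/N pools. It read -0.0076, -0.17, 0.39 and 0.25 across 129X1/Sv, -0.15, 0.10, -0.079 and -0.14 across BALB/c and -0.21, -0.32, -0.33 and 0.20 across DBA/2 pools. The C57BL/6 pools lay above all FVB/N pools, while the other strains lay between them and overlapped both (range 0.74, limma adjusted p = 0.0202). Element 11538 read 0.38, 0.16, 0.26 and 0.62 across C57BL/6 pools, against -0.41, -0.22, -0.21 and -0.40 across FVB/N pools. It read 0.31, -0.013, 0.53 and 0.22 across 129X1/Sv, 0.16, -0.074, -0.20 and -0.064 across BALB/c and -0.16, 0.025, -0.21 and -0.053 across DBA/2 pools. On this element 129X1/Sv had the next highest mean and overlapped C57BL/6, and every FVB/N pool lay below every C57BL/6 and 129X1/Sv pool (range 0.66, limma adjusted p = 0.0055).

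Mcm5, another helicase subunit, ran in a different order. Element 515 read 0.48, 0.070, 0.70 and 0.36 across 129X1/Sv pools, against -0.13, -0.51, -0.12 and -0.20 across C57BL/6 pools. It read 0.016, -0.33, -0.28 and -0.31 across FVB/N, 0.33, 0.058, -0.053 and 0.21 across BALB/c and 0.24, -0.076, -0.40 and 0.35 across DBA/2 pools. 129X1/Sv had the highest mean and C57BL/6 and FVB/N the lowest, but the pools of 129X1/Sv overlapped those of BALB/c and DBA/2 (range 0.64, limma adjusted p = 0.0509). Without 129X1/Sv pool 3 the adjusted p was 0.122, and the call was also lost when arrays were scaled to the same spread, quantile normalized or weighted. Its other element, 707, read 0.027, 0.72, 1.10 and 0.069 across 129X1/Sv, 0.18, -0.53, -0.28 and -0.034 across C57BL/6, 0.14, -0.18, -0.57 and -0.15 across FVB/N, 0.55, 0.20, -0.48 and 0.18 across BALB/c and 0.64, -0.075, -0.24 and 0.37 across DBA/2 pools. These values kept 129X1/Sv highest but scattered more within strains, and the element did not pass (adjusted p = 0.376 in limma).

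The other helicase subunits did not pass on any element. Mcm3 averaged 0.46 for 129X1/Sv and -0.21 for C57BL/6 on element 1423, and 0.21 for 129X1/Sv and -0.13 for C57BL/6 on element 1231. Without 129X1/Sv pool 3, the highest of the 20 on both elements, the 129X1/Sv means were 0.22 and 0.074. Mcm7 averaged 0.20 and 0.10 in 129X1/Sv, and the single element of Mcm4 averaged 0.064 there. Of the 11 elements of Mcm2 to Mcm7, 7 were highest in 129X1/Sv, those of Mcm3, Mcm4, Mcm5 and Mcm7, against 24.2% of all elements tested, and 1 of these 7, Mcm5 element 515, passed. After scaling the arrays to the same spread or quantile normalization it was 6 of 11, with Mcm7 element 8454 highest in FVB/N. That element was also highest in FVB/N without 129X1/Sv pool 3, 129X1/Sv pool 4 or FVB/N pool 3, and Mcm4 was highest in BALB/c without 129X1/Sv pool 1 or pool 3. Both elements of Mcm2 were highest in BALB/c, and element 6480 averaged 0.18 for C57BL/6, -0.14 for 129X1/Sv, 0.0011 for FVB/N, 0.30 for BALB/c and -0.13 for DBA/2 (limma, adjusted p = 0.117). The subunits thus had no highest strain in common, as Mcm6 was highest in C57BL/6.

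Orc4 encodes a subunit of the origin recognition complex. Element 1097 read -0.40, -0.29, -0.47 and -0.30 across 129X1/Sv pools, all below the 16 others. It read 0.33, 0.41, 0.081 and 0.46 across FVB/N, -0.047, 0.21, 0.074 and 0.052 across C57BL/6, -0.18, -0.14, -0.016 and 0.27 across BALB/c and -0.18, -0.17, -0.20 and -0.19 across DBA/2 pools. FVB/N was highest, over a range of 0.69 (limma, adjusted p = 0.00234). Element 1174 read -0.18, 0.22, -0.43 and -0.35 across 129X1/Sv, 0.22, 0.41, 0.15 and 0.33 across FVB/N, -0.094, 0.21, 0.14 and -0.17 across C57BL/6, -0.23, -0.081, -0.061 and -0.27 across BALB/c and -0.18, 0.16, -0.13 and 0.016 across DBA/2 pools. Element 8910 read 0.25, 0.28, -0.24 and -0.73 across 129X1/Sv, 0.099, 0.27, -0.037 and 0.91 across FVB/N, -0.26, 0.14, -0.28 and -0.12 across C57BL/6, 0.099, 0.054, -0.41 and 0.10 across BALB/c and -0.016, -0.35, -0.33 and -0.23 across DBA/2 pools. FVB/N had the highest mean on all 3 elements, but only element 1097 passed (adjusted p = 0.134 and 0.459 on the others in limma). The largest p of this role belonged to Orc2, with a range of 0.14 (limma, adjusted p = 0.929).

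None of the 10 elements for the polymerases, the sliding clamp and its loader, and the topoisomerases passed in limma, and 2 had an unadjusted p under 0.05 (11.3% and 19.9% of all elements tested). With so few elements, none past the test is not far from that share. Pcna, the sliding clamp, had the smallest p of the 7 genes, with means of -0.023 for C57BL/6, -0.39 for 129X1/Sv, 0.035 for FVB/N, 0.14 for BALB/c and -0.19 for DBA/2 on element 6672 (limma, adjusted p = 0.192). Its other element, 53, averaged -0.30 in 129X1/Sv and 0.076 in BALB/c. Without 129X1/Sv pool 4, which read -0.99, 129X1/Sv averaged -0.073 on element 53 and DBA/2 was lowest at -0.097, while on element 6672 129X1/Sv was still lowest at -0.26. Top2a, the topoisomerase of dividing cells, averaged 0.061 for C57BL/6, 0.067 for 129X1/Sv, -0.11 for FVB/N, -0.27 for BALB/c and 0.051 for DBA/2, with an adjusted p of 0.458 in limma. Pold4, a small subunit of a polymerase, had the largest p, with a range of 0.14.

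Of the 20 cyclin elements 3 passed, in Ccna2 and Ccnb2 out of 7 genes, and the median range was 0.52. Ccna2 encodes cyclin A2, the partner of Cdk2 in S phase. Element 8284 read -0.35, -0.72, -0.81 and -0.37 across DBA/2 and -0.33, -0.58, -0.20 and -0.38 across 129X1/Sv pools. It read -0.0031, 0.26, 0.15 and 0.37 across C57BL/6, -0.073, 0.44, -0.071 and 0.29 across FVB/N and 0.084, 0.19, 0.21 and 0.12 across BALB/c pools. All 8 pools of DBA/2 and 129X1/Sv were below the 12 others, over a range of 0.76 (limma, adjusted p = 9.72e-04). Element 5201 read -0.31, -0.19, -0.13 and -0.16 across DBA/2 and -0.22, -0.29, -0.86 and -0.14 across 129X1/Sv pools. It read 0.12, 0.22, 0.13 and 0.39 across C57BL/6, 0.061, 0.37, -0.058 and 0.28 across FVB/N and 0.24, 0.18, 0.26 and 0.24 across BALB/c pools. The same 8 pools were again the lowest, over a range of 0.61 (limma, adjusted p = 0.00876).

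The other elements of Ccna2, 5393 and 8092, carry the same matching sequence and did not pass, at an adjusted p of 0.246 and 0.15 in limma. Element 5393 read -0.16, -0.36, -0.25 and -0.056 across DBA/2, -0.31, -0.095, -0.24 and 0.0023 across 129X1/Sv, 0.15, 0.18, 0.011 and 0.33 across C57BL/6, 0.32, -0.35, -0.0064 and 0.42 across FVB/N and -0.042, 0.021, 0.21 and 0.27 across BALB/c pools. Element 8092 read -0.33, -0.43, -0.66 and -0.16 across DBA/2, -0.40, -0.54, -0.44 and -0.092 across 129X1/Sv, 0.099, -0.17, 2.04 and 0.33 across C57BL/6, 0.21, 0.54, 0.095 and 0.38 across FVB/N and -0.039, 0.056, 0.23 and 0.67 across BALB/c pools. On both, the means of DBA/2 and 129X1/Sv were the lowest, and on element 8092 C57BL/6 pool 3, at 2.04, lay far above the other pools.

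Ccnb2 encodes cyclin B2, a partner of Cdk1 at mitosis. Element 10263 averaged 0.37 ± 0.20 for C57BL/6, -0.15 ± 0.12 for 129X1/Sv, -0.21 ± 0.15 for FVB/N, 0.15 ± 0.24 for BALB/c and 0.034 ± 0.24 for DBA/2 pools (SD, n = 4 each). C57BL/6 was highest, and the call was lost without C57BL/6 pool 3 or pool 4 (adjusted p = 0.0458 with all arrays, 0.121 and 0.127 without them, in limma). Ccnd1, cyclin D1 of early G1, had means on element 3250 of -0.26 for C57BL/6, -0.11 for 129X1/Sv, 0.25 for FVB/N, 0.036 for BALB/c and -0.076 for DBA/2, and did not pass (limma, adjusted p = 0.536). On its element 10638 C57BL/6 was again lowest, at -0.29, with an adjusted p of 0.858 in limma. Ccne1 had the largest p of the cyclins, with a range of 0.11 on element 5213.

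**Figure D3:**
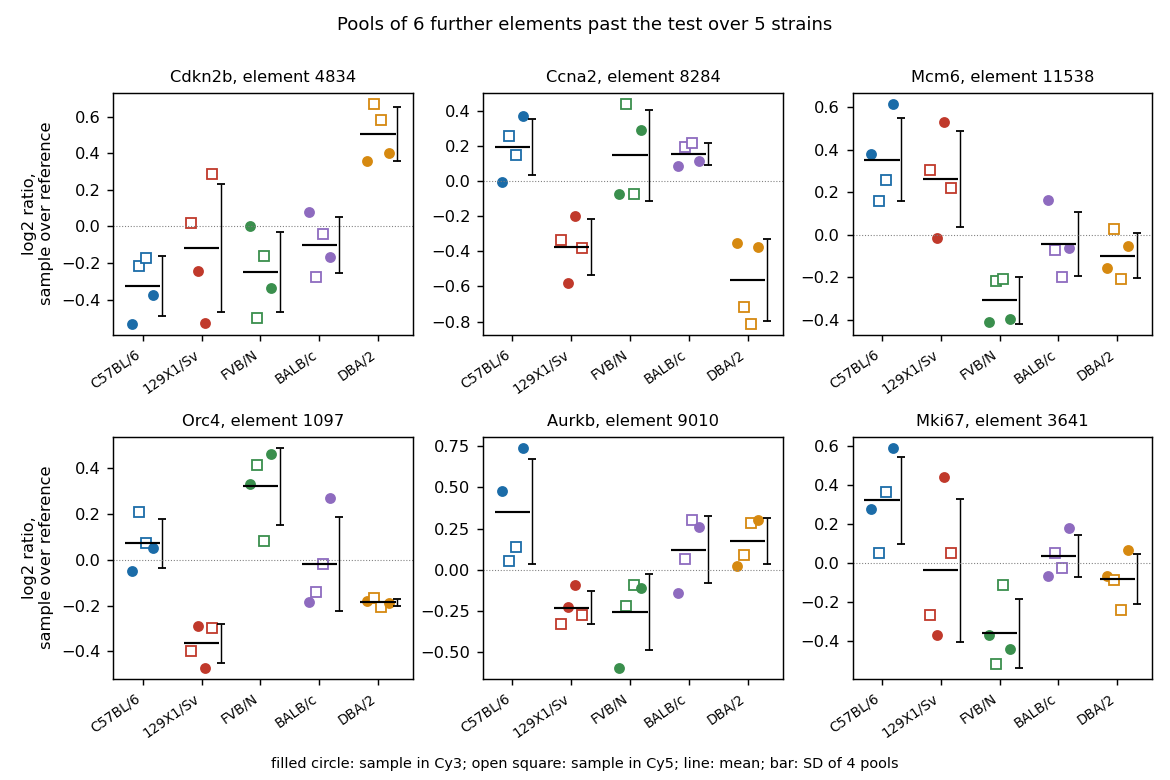
Log2 ratio of each pool (vertical axes, pool over reference) for 6 further elements that passed the F test, by strain, with the mean as a line and the SD of 4 pools as a bar, pools in Cy3 as filled circles and pools in Cy5 as open squares. DBA/2 lies above all others in Cdkn2b and 129X1/Sv below all others in Orc4, while pools of several strains overlap in Mcm6, Aurkb and Mki67.

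Among the kinases and Cdc25 phosphatases, 4 of 20 elements passed, in Cdk1 and Cdk6 out of 7 genes. Cdk1 drives entry into mitosis. Element 1580 read 0.052, 0.47, 0.53 and 0.25 across BALB/c and 0.39, -0.094, 0.58 and 0.37 across C57BL/6 pools, against 0.0050, -0.66, -0.29 and -0.28 across 129X1/Sv pools. It read -0.34, 0.24, -0.27 and -0.097 across FVB/N and -0.31, -0.17, 0.0075 and 0.038 across DBA/2 pools. BALB/c and C57BL/6 had nearly equal means and 129X1/Sv the lowest, over a range of 0.63 (limma, adjusted p = 0.0444). Element 1772 of the same matching sequence read 0.028, 0.37, 0.48 and 0.23 across BALB/c, 0.32, -0.095, 0.48 and 0.35 across C57BL/6, -0.059, -0.42, -0.22 and -0.042 across 129X1/Sv, -0.41, 0.19, -0.19 and -0.066 across FVB/N and -0.44, -0.22, -0.088 and 0.077 across DBA/2 pools. It passed at an adjusted p of 0.0844 in limma, and leaving out 1 pool ended this call for 14 of the 20 pools, at up to 0.165, and kept it only for C57BL/6 pool 2, 129X1/Sv pools 1 and 4, FVB/N pool 2, BALB/c pool 1 and DBA/2 pool 4. Element 7344 of another sequence read 0.11, 0.54, 0.32 and 0.50 across BALB/c, 0.16, -0.21, 0.31 and 0.37 across C57BL/6, -0.14, -0.079, 0.014 and -0.44 across 129X1/Sv, -0.0059, -0.17, -0.40 and 0.097 across FVB/N and 0.055, -0.19, -0.19 and 0.18 across DBA/2 pools. It did not pass (limma, adjusted p = 0.11). BALB/c and C57BL/6 had the highest means on all 3 elements, whichever pool was left out, but their order on elements 1580 and 1772 and the lowest strain on elements 1772 and 7344 turned on single pools. Without 129X1/Sv pool 4 the lowest on element 7344 was FVB/N at -0.12, with 129X1/Sv at -0.068, and without 129X1/Sv pool 2 the lowest on element 1772 was DBA/2 at -0.17, with 129X1/Sv at -0.11.

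Cdk6, a kinase of G1, passed on 2 of its elements, but not with all its elements averaged (limma, adjusted p = 0.106). Element 1133 averaged 0.26 ± 0.081 for DBA/2, -0.29 ± 0.11 for FVB/N, 0.054 ± 0.13 for C57BL/6, -0.15 ± 0.045 for 129X1/Sv and 0.077 ± 0.12 for BALB/c pools (SD, n = 4 each; limma, adjusted p = 0.0037). Element 931 averaged 0.19 ± 0.095 for DBA/2, -0.38 ± 0.14 for FVB/N, 0.031 ± 0.16 for C57BL/6, 0.0066 ± 0.21 for 129X1/Sv and 0.060 ± 0.18 for BALB/c pools (SD, n = 4 each), and all 4 FVB/N pools were below the 16 others. It passed at an adjusted p of 0.0322 in limma, and at 0.113 and 0.129 no longer passed without FVB/N pool 1 or pool 2. Elements 5550 and 5742 of Cdk6, which share another sequence, were highest in 129X1/Sv at 0.18 and 0.28 and did not pass (limma, adjusted p = 0.525 and 0.676). Cdc25b, a phosphatase that activates Cdk1, had the largest p of this role, with a range of 0.24.

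Of 9 elements for inhibitors of cyclin-dependent kinases 2 passed, both of Cdkn2b, and the median range was 0.61. Cdkn2b encodes an inhibitor of Cdk4 and Cdk6. Element 4834 read 0.36, 0.67, 0.58 and 0.40 across DBA/2 pools. It read -0.53, -0.22, -0.17 and -0.38 across C57BL/6, 0.019, -0.24, -0.53 and 0.29 across 129X1/Sv, 0.0020, -0.50, -0.16 and -0.34 across FVB/N and 0.077, -0.28, -0.042 and -0.17 across BALB/c pools. All 4 DBA/2 pools lay above the 16 others, and DBA/2 exceeded the mean of the other 4 strains by 0.70 (SE 0.12, adjusted p = 0.00191) in limma. Element 5026 read 0.63, 0.65, 0.43 and 0.59 across DBA/2 pools. It read -0.29, -0.13, -0.23 and -0.26 across C57BL/6, -0.093, 0.23, -0.26 and 0.34 across 129X1/Sv, -0.10, -0.40, -0.29 and -0.057 across FVB/N and 0.22, -0.23, -0.69 and 0.080 across BALB/c pools. The DBA/2 pools were again above all others, by 0.71 (SE 0.13, adjusted p = 0.00319) over the mean of the other 4 strains in limma. DBA/2 thus stood 1.78-fold and 1.75-fold above C57BL/6, the lowest strain, and the gene passed without any 1 pool. Both elements carry the same matching sequence and correlated at r = 0.79 over the 20 arrays. In the Cy5 arrays alone neither passed, at an adjusted p of 0.108 and 0.157 in limma.

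Other inhibitors had wide ranges without passing. Cdkn1b, which encodes p27, averaged -0.94 for 129X1/Sv and between -0.12 and 0.10 in the other strains, with an SD within strains of 0.79 (limma, adjusted p = 0.573). That mean rested on 129X1/Sv pool 1, at -3.47, and without it 129X1/Sv averaged -0.098 and the range over the strains was 0.22. Element 1673 of Cdkn1c, an imprinted gene for a kinase inhibitor, averaged 0.87 for C57BL/6 and between -0.19 and 0.16 elsewhere, with an SD within strains of 1.12 (limma, adjusted p = 0.843), and its 129X1/Sv pools alone ran from -2.17 to 1.93. On Cdkn1c elements 8096 and 8288 C57BL/6 was instead the lowest strain, at -0.15 and -0.21, and neither passed (limma, adjusted p = 0.415 and 0.906). Cdkn1a, which encodes p21, had the largest p of this role, 0.918 after adjustment in limma.

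Among the 32 elements for the kinetochore, the spindle checkpoint and mitosis, 5 passed, in 4 of 21 genes, and the median range of 0.32 was that of all elements tested. Besides Mis12 these were Aurkb, Bub1b and Mki67. Aurkb encodes the kinase that corrects attachments of chromosomes to the spindle. Element 9010 read 0.48, 0.053, 0.14 and 0.74 across C57BL/6 pools, against -0.59, -0.22, -0.094 and -0.11 across FVB/N pools. It read -0.33, -0.23, -0.092 and -0.27 across 129X1/Sv, -0.14, 0.065, 0.30 and 0.26 across BALB/c and 0.023, 0.089, 0.28 and 0.30 across DBA/2 pools. Element 8818 of the same matching sequence read 0.55, 0.10, 0.31 and 0.34 across C57BL/6, -0.080, 0.070, -0.0045 and -0.0033 across FVB/N, -0.26, -0.33, -0.30 and -0.11 across 129X1/Sv, -0.15, -0.23, 0.45 and -0.060 across BALB/c and 0.13, 0.15, 0.12 and 0.014 across DBA/2 pools. C57BL/6 had the highest mean on both and its pools lay above those of 129X1/Sv and FVB/N, but they overlapped those of BALB/c and DBA/2 (limma, adjusted p = 0.0318 and 0.0551). The second call was lost without C57BL/6 pool 1, 3 or 4 or without 129X1/Sv pool 2 or 3, at up to 0.153.

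The remaining elements of Aurkb, 874 and 1066, carry another sequence. Element 874 read 0.22, -0.20, 0.18 and 0.46 across C57BL/6, -0.40, -0.11, -0.13 and 0.14 across FVB/N, -0.074, -0.27, 0.66 and -0.15 across 129X1/Sv, 0.26, -0.066, -0.034 and 0.36 across BALB/c and 0.14, 0.13, -0.053 and 0.30 across DBA/2 pools. Element 1066 read -0.027, -0.054, -0.077 and 0.40 across C57BL/6, 0.00020, 0.057, 0.057 and 0.043 across FVB/N, -0.055, 0.28, -0.21 and -0.21 across 129X1/Sv, 0.54, 0.19, -0.033 and 0.0033 across BALB/c and 0.27, 0.31, 0.087 and 0.23 across DBA/2 pools. Element 874 was highest in C57BL/6 and lowest in FVB/N like element 9010, while element 1066 was highest in DBA/2 and lowest in 129X1/Sv. Their spots correlated at r = 0.14 with each other over 20 arrays, and neither passed (limma, adjusted p = 0.792 and 0.638).

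Mki67 encodes the nuclear antigen by which dividing cells are commonly counted. Element 3641 read 0.28, 0.054, 0.36 and 0.59 across C57BL/6 pools, against -0.37, -0.52, -0.11 and -0.44 across FVB/N pools. It read -0.27, -0.37, 0.44 and 0.051 across 129X1/Sv, -0.064, 0.051, -0.023 and 0.18 across BALB/c and -0.066, -0.088, -0.24 and 0.070 across DBA/2 pools. Every C57BL/6 pool exceeded every FVB/N pool, while 129X1/Sv spanned both (range 0.68, limma adjusted p = 0.0682). Element 1676 of another sequence read 0.74, 0.13, 0.64 and 0.60 across C57BL/6 pools, against -0.57, -0.30, -0.22 and -0.76 across FVB/N pools. It read 0.17, -0.87, -0.037 and 0.62 across 129X1/Sv, -0.059, -0.11, 0.33 and 0.13 across BALB/c and 0.034, -0.20, -0.32 and 0.39 across DBA/2 pools. The order of its strain means had the same ends over a range of 0.99, and at an adjusted p of 0.101 in limma it fell just outside the threshold. The call on element 3641 was lost without any 1 of C57BL/6 pools 1, 3 and 4, FVB/N pools 1, 2 and 4, and DBA/2 pool 2, at up to 0.172. Tested on the 8 arrays of both strains alone, C57BL/6 exceeded FVB/N by 0.68 (SE 0.14, adjusted p = 0.0227) on element 3641 and by 0.99 (SE 0.16, adjusted p = 0.00661) on element 1676 in limma.

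Bub1b encodes BubR1, which keeps anaphase from starting while chromosomes are unattached. Its element averaged 0.43 ± 0.22 for C57BL/6, -0.094 ± 0.31 for 129X1/Sv, -0.11 ± 0.092 for FVB/N, -0.061 ± 0.097 for BALB/c and -0.00047 ± 0.15 for DBA/2 pools (SD, n = 4 each). The mean of C57BL/6 was above those of 4 strains with nearly equal means (limma, adjusted p = 0.059). Pools overlapped, as 129X1/Sv pool 3, at 0.31, lay above C57BL/6 pools 1 and 2, at 0.30 and 0.23. The call was lost without C57BL/6 pool 3 or pool 4, at an adjusted p of 0.16 and 0.238 in limma. Of the 21 elements of Cenp genes, most of which encode centromere proteins, 0 passed in limma and 4 had an unadjusted p under 0.05 (11.3% and 19.9% of all elements tested). With the elements of a gene averaged, however, Cenpf and Cenpe, a pair of kinetochore proteins, passed at an adjusted p of 0.0259 and 0.056 in limma, and both were highest in C57BL/6, at 0.27 and 0.23. Cenpv had the largest p of the role with a range of 0.12.

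Of 12 elements for anaphase promotion 3 passed, those of Pttg1 and the one of Cdc26, a small subunit of the anaphase-promoting complex. Cdc26 averaged 0.23 ± 0.19 for FVB/N, -0.34 ± 0.14 for DBA/2, 0.070 ± 0.20 for C57BL/6, 0.12 ± 0.28 for 129X1/Sv and -0.15 ± 0.12 for BALB/c pools (SD, n = 4 each; limma, adjusted p = 0.057). FVB/N was highest and DBA/2 lowest, and FVB/N minus DBA/2 was 0.56 (SE 0.12, adjusted p = 0.022) in limma on their 8 arrays. The F test lost this call without FVB/N pool 1 or 4 or DBA/2 pool 1, 2 or 3, at up to 0.157. Cdc14a, a phosphatase, had the smallest range of all members at 0.080.

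Of the 21 elements grouped apart, for products that mostly act elsewhere, 2 passed. Cdc42ep3 encodes an effector of the small GTPase Cdc42 and is no cell cycle gene. Element 11265 read 0.27, 1.09, 0.20 and -0.014 across C57BL/6 pools, against 0.00050, -0.38, -0.59 and -2.06 across 129X1/Sv pools. It read 0.31, -0.29, -0.27 and -0.20 across FVB/N, 0.032, -0.11, 0.090 and 0.18 across BALB/c and 0.50, 0.45, 0.0089 and 0.53 across DBA/2 pools. Without 129X1/Sv pool 4, the lowest by far, the range of 1.14 became 0.71, and the call (limma, adjusted p = 0.0977) was lost for 15 of 20 pools when that pool was left out, at up to 0.156. It was kept without C57BL/6 pool 4, 129X1/Sv pool 1, 2 or 4 or FVB/N pool 1. Element 9821 of the same sequence read 0.20, -0.29, 0.076 and -0.14 across C57BL/6, -0.45, 0.42, -0.50 and -0.26 across 129X1/Sv, 0.50, -0.052, 0.25 and 0.072 across FVB/N, 0.21, -0.20, -0.16 and -0.098 across BALB/c and -0.20, 0.021, -0.0094 and 0.15 across DBA/2 pools. The spots correlated at r = 0.16 only, and element 9821 had an adjusted p of 0.647 in limma. Mcm3ap, whose product binds Mcm3 and takes part in export of mRNA, averaged 0.28 ± 0.13 for FVB/N, -0.22 ± 0.085 for C57BL/6, 0.12 ± 0.17 for 129X1/Sv, 0.051 ± 0.057 for BALB/c and -0.056 ± 0.053 for DBA/2 pools (SD, n = 4 each; limma, adjusted p = 0.0158). Ccnl2, a cyclin of splicing bodies, had the largest p of this group.

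**Figure D4:**
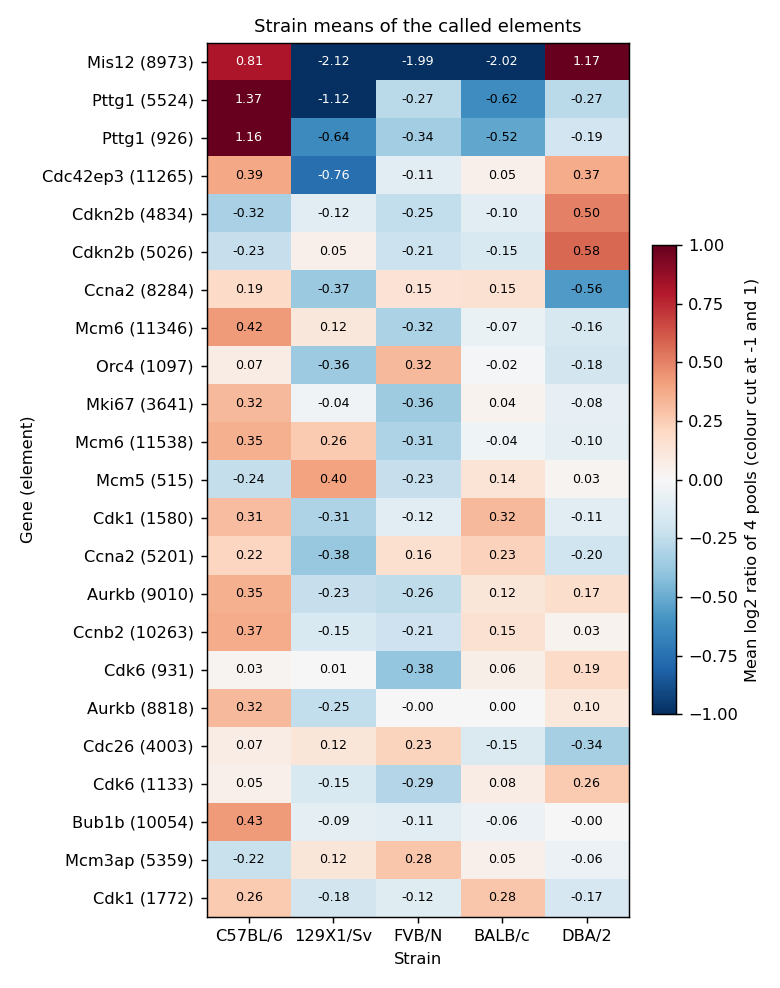
Mean log2 ratio of 4 pools in each strain (columns) for the 23 elements past the F test (rows, ordered by range, gene with element number); red is above and blue below the reference. The C57BL/6 column holds the highest mean in 11 rows, and the BALB/c column holds the lowest mean in 0.

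Across the 23 elements, C57BL/6 had the highest mean in 11, or 47.8%, while it was highest in 23.1% of all 1258 elements past the test. The lowest mean was in 129X1/Sv in 9, in FVB/N in 8 and in BALB/c in 0, against 27.2%, 18% and 15.4% of all elements past the test. 129X1/Sv had the highest mean in 1 of the 23, against 27.1% of all past the test. Over all 147 elements C57BL/6 was highest in 24.5% and lowest in 19%, near the 21.2% and 20.3% of all elements tested, and 129X1/Sv was highest in 17.7%, against 24.2%. Elements of a gene repeat each other in these counts, and no test was made of them.

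Set against the mean of the other 4 strains, C57BL/6 was higher in 7 elements (1.77% of all elements tested were higher) and lower in 1 (1.44% of all), at an adjusted p under 0.05 in limma, which makes 8 in either direction (3.22% of all). The higher ones were Mis12, Pttg1 on both elements, Mcm6 on both elements, Ccnb2 and Bub1b. The differences were 2.05 (SE 0.14, adjusted p = 1.98e-08) for Mis12, 1.93 (SE 0.11, adjusted p = 6.12e-10) for Pttg1 element 5524 and 0.50 (SE 0.11, adjusted p = 0.0138) for Bub1b in limma. The lower one was Mcm3ap, at -0.32 (SE 0.077, adjusted p = 0.0238) in limma. The count of 8 became 5 without C57BL/6 pool 1 and 3 without C57BL/6 pool 3 or pool 4. All 4 C57BL/6 pools lay above the 16 others in 2 elements, those of Pttg1 (0.502% of all elements tested), and below them in 0 (0.358% of all).

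Against the mean of the others, 129X1/Sv was higher in 1 element (2.96% of all elements tested) and lower in 8 (2.74% of all), 9 in all (5.7% in either direction). The lower ones were Mis12, both elements of Pttg1, Orc4, Ccna2 element 5201, Aurkb element 8818, Cdc42ep3 and Cdk2, and the higher one was Mcm5. Cdk2, the kinase partner of cyclins E and A, is named here after its values were seen, at -0.32 (SE 0.086, adjusted p = 0.0327) in limma. With arrays scaled to the same spread or quantile normalized, 0 elements were higher and 3 or 2 lower. Without 129X1/Sv pool 4 the count of 9 became 7. All 4 129X1/Sv pools lay below the 16 others in Pttg1 element 5524 and Orc4 element 1097 (0.511% of all), and above them in Cdk11b (0.672% of all), a kinase that acts in transcription and splicing and passed no test here.

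FVB/N was higher in 2 elements (1.22% of all elements tested) and lower in 4 (1.34% of all), 6 in either direction (2.55% of all). Orc4 was higher by 0.45 (SE 0.086, adjusted p = 0.00497) and Mcm3ap by 0.31 (SE 0.077, adjusted p = 0.0363), and Mis12, both elements of Cdk6 and Mcm6 element 11538 were lower, in limma. The count of 6 became 3 without FVB/N pool 4, and all 4 FVB/N pools lay below the others in 1 element, Cdk6 element 931 (0.43% of all). BALB/c was higher in 0 (0.914% of all) and lower in 3 (1.12% of all, and 2.03% in either direction), which were Mis12 and both elements of Pttg1, and this count became 1 without BALB/c pool 1. At an unadjusted p under 0.05 in limma, BALB/c was higher in 14 elements and lower in 5, but the shares of all elements were not counted at that p.

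DBA/2 was higher in 4 elements (1.09% of all elements tested) and lower in 1 (0.869% of all), 5 in either direction (1.96% of all). Mis12 was higher by 2.50 (SE 0.14, adjusted p = 1.88e-09), Cdkn2b on both elements by the values above and Cdk6 by 0.34 (SE 0.075, adjusted p = 0.0165), and for Ccna2 DBA/2 minus the others was -0.59 (SE 0.11, adjusted p = 0.00319), in limma. The DBA/2 pools lay above all others in 2 elements, those of Cdkn2b (0.376% of all). Under scaling to the same spread 4 elements were higher and 5 lower, and under quantile normalization 4 and 6. For BALB/c the split became 1 higher and 3 lower, and 2 higher and 3 lower. These 5 contrasts share their arrays, since each strain is also part of the mean for the others.

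**Figure D5:**
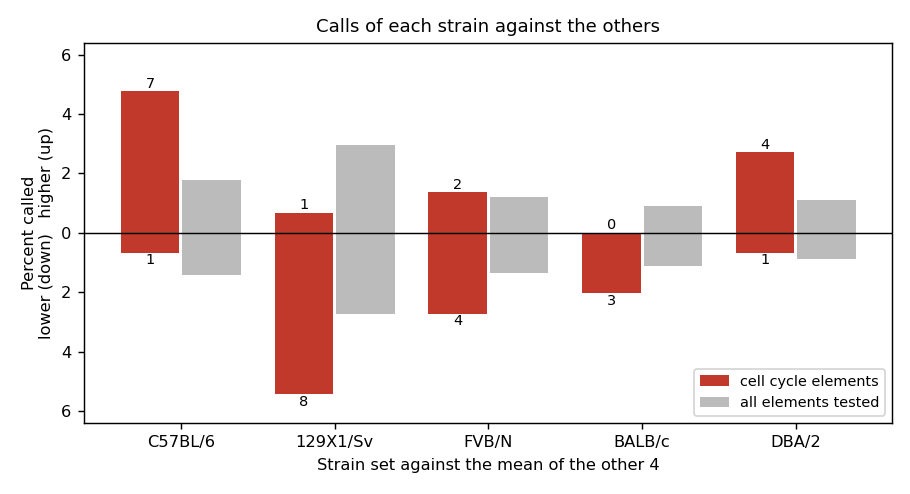
Percent of elements called higher (above the line) or lower (below it) in each strain against the mean of the other 4, for the 147 cell cycle elements (red, with their number) and all 11159 elements tested (grey), at an adjusted p under 0.05. C57BL/6 has 7 higher and 1 lower, and 129X1/Sv 1 higher and 8 lower.

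When each pair of strains was fitted on its own 8 arrays, the 10 pairs gave 45 member calls at an adjusted p under 0.05 in limma, and 121 members, or 82.3%, passed in no pair, against 90.6% of all elements tested. C57BL/6 minus FVB/N gave 10 higher elements (1.93% of all elements tested) and 1 lower (1.2% of all). The higher ones were both elements each of Pttg1, Mki67, Ccnb2 and Mcm6, with Mis12 and Bub1b, and the lower one was Mcm3ap. Ccnb2 element 10455, which had not passed the F test, was among them at 0.79 (SE 0.16, adjusted p = 0.0201) in limma. BALB/c minus DBA/2 gave 8 higher (1.94% of all) and 3 lower (1.49% of all), among them both elements of Mcm2, at 0.54 (SE 0.12, adjusted p = 0.0385) and 0.43 (SE 0.098, adjusted p = 0.0371) in limma, and 2 of the 6 elements of Ccng1, a p53 target. FVB/N minus DBA/2 gave 4 higher (1.76% of all) and 5 lower (1.97% of all), with Cdkn2b, Cdk6 and Mis12 lower.

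The other pairs held few member calls. C57BL/6 was higher than 129X1/Sv in 3 elements (0.699% of all) and than BALB/c in 3 (1.6% of all), in both cases Mis12 and Pttg1. C57BL/6 minus DBA/2 gave 3 higher (1.57% of all), in Pttg1 and Ccna2, and 2 lower (1.42% of all), both of Cdkn2b. 129X1/Sv minus FVB/N gave 1 lower (0.314% of all), Pttg1, and 129X1/Sv minus DBA/2 gave 2 lower (0.6% of all), Pttg1 and Mis12. 129X1/Sv minus BALB/c and FVB/N minus BALB/c gave 0 calls among the members in limma (0.887% and 2.41% of all), while 14 and 28 members had an unadjusted p under 0.05. The shares of all elements at that unadjusted p were not counted for single pairs.

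Besides Mis12 and Pttg1, the genes called higher in C57BL/6 than in FVB/N were Mcm6, Bub1b, Ccnb2 and Mki67. Over the 5 strains these were highest in C57BL/6, unlike Mis12, which was highest in DBA/2. Their promoters are shown because of the call against FVB/N. They are the 250 bases before the RefSeq start in GRCm38.p6, at chr1:128359706-128359955, minus strand for Mcm6, chr2:118597961-118598210, plus strand for Bub1b, chr9:70421555-70421804, minus strand for Ccnb2 and chr7:135716380-135716629, minus strand for Mki67. Capitals mark the same 4 motifs.
Mcm6: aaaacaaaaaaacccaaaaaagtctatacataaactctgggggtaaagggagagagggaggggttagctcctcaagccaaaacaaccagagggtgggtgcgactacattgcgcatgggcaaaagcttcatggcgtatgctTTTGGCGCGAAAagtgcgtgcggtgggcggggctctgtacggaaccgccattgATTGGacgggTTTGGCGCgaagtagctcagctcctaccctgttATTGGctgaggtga
Bub1b: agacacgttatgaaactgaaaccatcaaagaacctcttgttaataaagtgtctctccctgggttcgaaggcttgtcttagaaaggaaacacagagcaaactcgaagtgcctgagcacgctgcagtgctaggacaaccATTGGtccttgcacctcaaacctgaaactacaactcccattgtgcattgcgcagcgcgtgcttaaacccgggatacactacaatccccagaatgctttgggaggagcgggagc
Ccnb2: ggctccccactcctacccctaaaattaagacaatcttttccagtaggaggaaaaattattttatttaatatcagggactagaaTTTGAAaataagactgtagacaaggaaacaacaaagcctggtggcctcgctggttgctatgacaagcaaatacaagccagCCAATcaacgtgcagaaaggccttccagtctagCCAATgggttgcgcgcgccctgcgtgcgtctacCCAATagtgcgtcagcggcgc
Mki67: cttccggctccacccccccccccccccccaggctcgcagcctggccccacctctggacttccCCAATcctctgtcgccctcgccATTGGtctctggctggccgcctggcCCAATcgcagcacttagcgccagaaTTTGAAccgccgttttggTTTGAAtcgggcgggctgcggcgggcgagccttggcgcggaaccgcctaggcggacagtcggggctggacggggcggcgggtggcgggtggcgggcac
Mcm6 held 2 matches of TTTGGCGC, 1 of TTTCGCGC and 2 of CCAAT, Bub1b 1 CCAAT, Ccnb2 3 CCAAT and 1 TTTGAA, and Mki67 3 CCAAT and 2 TTTGAA. Of the 86 genes, 78 had 1 or more promoters in the RefSeq table, and 47 of these, or 60.3%, held CCAAT in at least 1 of them, against 37.5% of all 27025 genes of the table counted the same way. Counted by promoter, CCAAT was in 51 of 94, or 54.3%, against 33.8% of all 32851. TTTGAA was in 14 of the 78 genes, or 17.9%, against 18.3% of all genes. TTTCGCGC was in 3 and TTTGGCGC in 4 of the 78, or 3.85% and 5.13%, against 0.3% and 0.485% of all genes. The 3 genes with TTTCGCGC were Cdk1, Mcm5 and Mcm6, whose strain orders differed. Aurkb and Ccna2 had no entry.

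Repeated spots give a measure of the error of a single element. Among members, 32 pairs of elements carried the same matching sequence, in 22 genes. Their correlation over the arrays had a median of 0.69 and ran from 0.14 to 0.96, and the SD of a single spot estimated from the pairs had a median of 0.18. Both spots passed the F test in 6 pairs, 1 of them in 7 and neither in 19, and the strain with the highest mean was the same in 20. Of the genes with several elements, Pttg1, Cdkn2b and Mcm6 passed on every element and 9 passed on some only. With the elements of a gene averaged, Ccnb2, Cdc42ep3, Cdk6 and Mcm5 no longer passed, at an adjusted p of 0.107, 0.1001, 0.106 and 0.11 in limma, while Cdk2, Cenpe and Cenpf did. Mis12, Bub1b, Cdc26 and Mcm3ap had 1 element each.

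Between the dyes, each with 10 arrays, 32 members differed, or 21.8%, against 15.9% of all elements tested. With the strain in the model, 29 elements were lower on arrays with the pool in Cy5 than on those with it in Cy3 (7.37% of all elements tested were), and 3 were higher (8.57% of all), at an adjusted p under 0.05 in limma. Cdc25a element 10089 differed by -0.61 (SE 0.14, adjusted p = 0.00932), Mcm5 element 707 by -0.58 (SE 0.10, adjusted p = 0.00109) and Top2a by -0.28 (SE 0.074, adjusted p = 0.0183), Cy5 minus Cy3, in limma. These were chosen after their values were seen. The dye was balanced in each strain, and none of the 23 elements past the F test was among these 32. That F test had no dye term, so a dye difference widens the spread within strains and makes a call less likely. The lack of overlap therefore does not show that the 23 are free of dye effects. In 17 of the 23 the same strain was highest in both dyes, and in 13 the same strain was lowest.

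Related genes outside the symbol families were listed from knowledge of the pathway. Of 122 such genes 56 were measured with a symbol of their own, and 6 passed the F test (limma), near the 12.5% of all 5820 genes counted by 1 element. The 56 had a median range of 0.32, as had all elements tested. Spc25, a subunit of the Ndc80 complex, which binds the Mis12 complex at the kinetochore, averaged 0.46 in C57BL/6 and -0.33 in 129X1/Sv. Chek2, a kinase of the DNA damage checkpoint, averaged 0.47 in C57BL/6 and -0.19 in DBA/2, with 2 values missing in 129X1/Sv. Anln and Tacc3, which act in cytokinesis and at the spindle, were highest in BALB/c at 0.47 and 0.33, and Cks1b, a small partner of the kinases, and Tfdp2, a partner of E2F factors, were highest in 129X1/Sv at 0.20 and 0.45. No strain was highest in all of these, and the mean over the 56 genes stayed between -0.042 in DBA/2 and 0.059 in BALB/c.

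Markers of the cells that such pools could hold moved with strain in places. For 7 luminal markers the mean lay between -0.11 in DBA/2 and 0.011 in FVB/N, but the pair that passed ran opposite ways. Epcam, an adhesion protein of epithelia, averaged -0.46 in C57BL/6 and 0.41 in 129X1/Sv, and Sbp, a prostate secretory protein, 0.77 in C57BL/6 and -0.94 in 129X1/Sv (limma, adjusted p = 2.85e-05 and 1.03e-04). The 1 basal marker measured lay between -0.088 in 129X1/Sv and 0.087 in DBA/2. Of 6 seminal vesicle genes 3 passed, with a mean of 1.04 in BALB/c and means between -2.72 in DBA/2 and -1.43 in FVB/N elsewhere, and the mean of single C57BL/6 pools ran from -3.33 to -0.042. Means of 6 smooth muscle and 5 fibroblast markers ran from -0.12 in C57BL/6 to 0.12 in DBA/2 and from -0.16 in 129X1/Sv to 0.14 in C57BL/6, with 0 and 1 past the test. Of 3 leukocyte markers 2 passed, with means from -0.23 in C57BL/6 to 0.099 in BALB/c, and Fabp4 of fat averaged -0.49 in C57BL/6 and 0.40 in 129X1/Sv. Of 5 skeletal muscle genes 2 passed and of 2 endothelial genes 0, with means of -0.29 and -0.26 in C57BL/6 and of 0.13 in DBA/2 for both lists. C57BL/6, where 11 of the 23 elements were highest, thus had the lowest means for leukocytes, endothelium, the 1 fat gene and both kinds of muscle. Its fibroblast mean, at 0.14, was the highest of the strains. It was lowest in 2 of the 6 smooth muscle and 2 of the 5 skeletal muscle genes. Genes within these lists differed, as Kdr and Cd52 were lowest in C57BL/6, at -0.64 and -0.51, but Cdh5 and Adgre1 were highest there, at 0.12 and 0.040, and Lyz2 was lowest in FVB/N at -0.34. The part of these cells in the results was not tested.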

How the data were processed

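The deposited values are log2 ratios of a pool over the common reference on 20 two-colour cDNA arrays, per the labels and methods background-subtracted by the authors and normalized by print-tip loess. Dye-swapped arrays had already been turned to the same direction, as the H2-Ea check bears out. Spot intensities and counts were not used here, so the precision rests on 4 pools a strain. Nothing was renormalized, and the unit of all results is log2.

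An element was tested if no more than 3 of its 20 values were missing and every strain kept 2 or more, which left out 393 of 11552. A platform table gave 8050 elements 1 symbol and 672 several, and 2830 were not in it. An element is named by its number on the array. Limma 3.58.1 in R 4.3.3 fitted 1 mean per strain to all elements, and p-values were adjusted by Benjamini-Hochberg over all elements tested, with thresholds of 0.1 for the F test and 0.05 for contrasts. Each pair of strains was fitted on its own 8 arrays. Each pool held 3 other mice, so p-values measure the spread between pools. The fits were tested on simulated data. Figures were drawn in matplotlib 3.10.9.

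The members and lists were chosen with earlier results of these data known. The 15 elements with the widest range among those past the F test, and other elements of their genes, are given pool by pool, usual proliferation genes by strain means, and other members by role with the smallest and largest p. Alternatives were other scalings, filters, moderation, array weights, a dye term, a block on pool number, 1 dye alone, averaged elements and each pool left out. Promoters came from RefSeq on GRCm38.p6.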

Additional observations from a re-analysis of the deposited data

Results flagged for a closer look

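Dixon's test was applied to each strain's 4 pools in the 27 elements given pool by pool, and in 6 of 135 groups 1 pool lay far from the other 3, where chance alone gives about 5% of groups. In Mcm6 element 11346, C57BL/6 pool 2 read 0.083, while the other C57BL/6 pools read between 0.50 and 0.56. In Mcm5 element 515, FVB/N pool 1 read 0.016 and the others between -0.33 and -0.28. Cdc42ep3 element 11265 had a distant pool in each of a pair of strains, FVB/N pool 1 at 0.31 with the others between -0.29 and -0.20, and DBA/2 pool 3 at 0.0089 with the others between 0.45 and 0.53. In Orc4 element 8910, BALB/c pool 3 read -0.41 and the others between 0.054 and 0.10. In Aurkb element 1066, C57BL/6 pool 4 read 0.40 and the others between -0.077 and -0.027. The last pair of elements did not pass the F test, and no difference between strains in these effects was tested.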

How the results depend on the processing

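The F test has no direction. Of the 23 elements past the F test, 14 passed whichever pool was left out, and Mis12 and both elements of Pttg1 passed under every alternative run. Leaving out 1 pool gave 18 to 32 elements for the F test, 3 to 11 for C57BL/6 against the others, 6 to 13 for 129X1/Sv, 3 to 9 for FVB/N, 1 to 3 for BALB/c and 4 to 6 for DBA/2, 33 to 49 calls over the pairs and 22 to 39 for the dye, against 23, 8, 9, 6, 3, 5, 45 and 32 with all arrays. Scaling arrays to the same spread gave 3 for 129X1/Sv and 9 for DBA/2, and quantile normalization 2 for 129X1/Sv, 5 for BALB/c and 10 for DBA/2. Array weights gave 40 for the F test, 17 for C57BL/6, 3 for 129X1/Sv, 11 for FVB/N, 6 for BALB/c, 16 for DBA/2 and 53 for the dye. A dye term gave 38 for the F test, and no moderation 25 calls over the pairs. Counted as genes after averaging elements, 15 genes passed the F test (14.2% of all genes), 5 were apart in 129X1/Sv, 3 in DBA/2 and 17 between dyes, with 29 calls over the pairs. Arrays in Cy3 alone gave 11 for the F test, 4 for C57BL/6, 1 each for FVB/N and DBA/2 and 19 over the pairs. Those in Cy5 alone gave 4 for the F test, 3 for C57BL/6, 4 for 129X1/Sv, 1 each for FVB/N, BALB/c and DBA/2 and 19 over the pairs. Single dyes halve the arrays, and otherwise the cause was not tested. Centring, robust moderation and the filters on missing values kept every such count within 1.5 times.

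With the pool number as a replicate block, 26 elements passed the F test, 10 were apart for C57BL/6, 10 for 129X1/Sv, 7 for FVB/N, 3 for BALB/c, 6 for DBA/2, 58 calls fell over the pairs and 24 between dyes, and no call on the 23 elements was lost. The labels do not say that the numbers pair the samples. Deviations of same-numbered pools correlated at -0.34 to 0.44, with a median of 0.21, and over 0.1 in 22 of 40 cases. Pools of different strains and numbers had a median of -0.054. The number follows the dye in part, since pools 1 and 4 carried Cy3 in every strain but 129X1/Sv. With the dye removed the medians were 0.086 and -0.049, with 17 of 40 cases over 0.1. What same-numbered pools share was not tested.

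The arrays give no depth, only ratios without spot intensity, so weak signal cannot be told from small difference. A gene with 1 element has no second spot, symbols follow an old platform annotation, and cross-hybridisation between family members was not tested.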

Other observations

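Genes that neighbour the members on the genome were read off the RefSeq order, after the values of the members were seen. The gene after Mis12, 6330403K07Rik, averaged 1.11 in DBA/2, against -0.34 in C57BL/6, -0.45 in 129X1/Sv, -0.70 in FVB/N and -0.67 in BALB/c (limma, adjusted p = 1.68e-04). It shared the high value in DBA/2 with Mis12 but not that in C57BL/6. Of 3 elements of Rpain, 4 genes before Mis12, 1 passed the F test, with a range of 0.56, and neither element of Dhx33 passed.

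Mtap, which encodes an enzyme of methionine salvage, lies 2 genes before Cdkn2b in that order. Both of its elements passed, with means in DBA/2 of 0.25 and 0.11 and in 129X1/Sv of -0.46 and -0.53 (limma, adjusted p = 8.73e-04 and 0.00382). DBA/2 did not stand alone there, since BALB/c averaged 0.23 and 0.21. Tusc1, 5 genes after Cdkn2b, passed with FVB/N highest at 0.27 and DBA/2 at -0.28 (limma, adjusted p = 0.0872). Caap1, 6 genes after it, did not pass (limma, adjusted p = 0.762). No measured neighbour of Pttg1 within 8 genes passed.

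Spots close to the members on the array were read as well. Tanc2, 2 positions after Mis12, correlated with it at r = 0.84 over the 20 arrays and had a range of 0.53, against 3.29 for Mis12. Tanc2 passed the F test (limma, adjusted p = 0.0178). The spot between both, element 8974, correlated with Mis12 at r = 0.46 and did not pass (limma, adjusted p = 0.661). Il1r2, 2 positions before each Cdkn2b spot, had ranges of 1.49 and 1.35 and correlated with those spots at r = 0.20 and 0.32.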
